A study of Mus musculus with 141 samples.

Results

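The Cyp2c genes encode the mouse CYP2C enzymes, heme-containing monooxygenases of the endoplasmic reticulum that oxidize drugs, steroids and fatty acids. Members were taken by gene symbol as the expression tables list them: Cyp2c29, Cyp2c37, Cyp2c38, Cyp2c39, Cyp2c40, Cyp2c44, Cyp2c50, Cyp2c54, Cyp2c55 and Cyp2c70, which are 10 of the 24423 genes measured. All 10 were listed in every RNA-seq library. These came from 47 Collaborative Cross strains, recombinant inbred mouse lines derived from 8 founder strains, with 1 male mouse per strain and a liver, a kidney and a lung library from each mouse. The mice were 8 to 12 weeks old, were fed a wafer diet under a 12-h light-dark cycle, spent 6 hours a day on weekdays for 2 weeks in exposure chambers supplied with clear air, and were exsanguinated under nembutal anesthesia. No group differed in treatment, so the comparisons are those between tissues and between strains, and with 1 mouse per strain the strain and the individual mouse cannot be told apart.

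CYP2C enzymes draw electrons from cytochrome P450 reductase (Por) and convert arachidonic acid to epoxyeicosatrienoic acids (EETs) or hydroxyeicosatetraenoic acids, lipid mediators that act on vessels and on renal salt transport. Soluble epoxide hydrolase (Ephx2) breaks the epoxides down. In hepatocytes several Cyp2c genes respond to the xenobiotic receptors CAR (Nr1i3) and PXR (Nr1i2) and to the hepatocyte factor HNF4A. Among the members, Cyp2c29 makes EETs and is inducible by phenobarbital, Cyp2c70 hydroxylates bile acids to the muricholic acids typical of mice, Cyp2c39 hydroxylates retinoic acid, and Cyp2c44 is an arachidonate epoxygenase studied in kidney.

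Total counts were 1738046 to 42158453 per liver library (median 10423382), 3046695 to 15028553 per kidney (8245850) and 2829104 to 17585682 per lung (9338124). A count of 0 allows up to 3 counts, or 0.364 CPM (counts scaled to the library total) at the median kidney depth and 0.321 at the median lung depth, for counting error only. The tissue labels held against their defining markers. Proximal tubule markers (Slc34a1, Lrp2, Cubn, Slc5a2) summed to 2320 to 8700 TPM (RSEM's length-scaled transcript abundance) in kidneys and to at most 103 in livers and 136 in lungs, and lung epithelium markers (Sftpc, Sftpb, Scgb1a1, Ager) to 18600 to 162000 TPM in lungs and at most 244 in livers and 370 in kidneys. Hepatocyte markers (Alb, Apoa1, Ttr, Serpina3k, Fgb) summed to 35100 to 153000 TPM in livers. They were also counted in kidneys (6.07 to 1570 TPM) and in lungs (4.37 to 2450 TPM). This bears on the members' values there and is taken up with them. Such counts were not particular to hepatocyte markers. Median sums of lung epithelium markers were 59.8 TPM in livers and 53.0 TPM in kidneys, against 81000 TPM in lungs. Those of proximal tubule markers were 4.78 TPM in livers and 62.3 TPM in lungs, against 5410 TPM in kidneys. The libraries least like the median profile of their tissue were the CC033 liver (r = 0.944), the CC037 lung (0.92) and the CC020 kidney (0.938).

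All 10 members lie on chromosome 19 (build mm9, GENCODE annotation), and each has 9 annotated exons. A set of 9 members and 5 further Cyp2c genes form a cluster of 1.18 Mb, from Cyp2c55 (chr19:39081509-39117183, plus strand) to Cyp2c70 (chr19:40227843-40261823, minus strand). In order along the chromosome the members between them are Cyp2c29 (chr19:39315441-39405189, plus), Cyp2c38 (chr19:39464046-39537565, minus), Cyp2c39 (chr19:39585352-39643019, plus), Cyp2c40 (chr19:39841561-39887304, minus), Cyp2c37 (chr19:40066909-40086738, plus), Cyp2c54 (chr19:40112431-40148301, minus) and Cyp2c50 (chr19:40164178-40188440, plus). Cyp2c44 (chr19:44079512-44103737, minus) stands 3.82 Mb beyond the cluster.

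Because reads were 50 bases long and only uniquely aligned reads were counted, the likeness between members decides what could be counted. In coding sequence Cyp2c37, Cyp2c50 and Cyp2c54 were 95.1% to 96.1% identical to one another, Cyp2c38 and Cyp2c39 were 94.2% identical, and Cyp2c29 was 89.1% identical to Cyp2c38 and 89.5% to Cyp2c39. Cyp2c70 and Cyp2c44 were the most distant, with identities to any other member of at most 68.7% and 64.7%. A stretch of 60 coding bases in exon 3 shows these 2 groups of close paralogs, with bases that differ from Cyp2c29 in capitals. Its positions in mm9 are chr19:39365556-39365615 for Cyp2c29, chr19:39534834-39534893 for Cyp2c38, chr19:39587999-39588058 for Cyp2c39, chr19:40068550-40068609 for Cyp2c37, chr19:40165045-40165104 for Cyp2c50 and chr19:40146626-40146685 for Cyp2c54.
Cyp2c29: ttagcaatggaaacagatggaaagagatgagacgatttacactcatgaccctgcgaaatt
Cyp2c38: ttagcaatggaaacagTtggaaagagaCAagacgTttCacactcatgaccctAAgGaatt
Cyp2c39: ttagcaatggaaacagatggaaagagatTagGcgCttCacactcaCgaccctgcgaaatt
Cyp2c37: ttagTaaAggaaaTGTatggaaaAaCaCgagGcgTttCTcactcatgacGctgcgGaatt
Cyp2c50: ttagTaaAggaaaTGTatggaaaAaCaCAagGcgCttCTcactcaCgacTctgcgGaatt
Cyp2c54: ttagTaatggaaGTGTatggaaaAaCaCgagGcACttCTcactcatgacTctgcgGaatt
Cyp2c37, Cyp2c50 and Cyp2c54 carry many of the same capitals, 14 to 16 of the 60 bases, against 8 in Cyp2c38 and 5 in Cyp2c39. Of the 50-base windows of an annotated transcript that lie within exons, the share found once in the genome was 100.0% for Cyp2c44 and Cyp2c70, 99.4% for Cyp2c55, 97.4% for Cyp2c29, 95.3% for Cyp2c38 and 91.5% for Cyp2c39. It was 74.1% for Cyp2c54, 69.3% for Cyp2c37 and 68.2% for Cyp2c50. For Cyp2c40 it was 28.8%, and 72.1% of all its windows also occur in transcripts of other genes, which were Cyp2c67, Cyp2c68 and Cyp2c69. Levels of Cyp2c40, and to a lesser degree of Cyp2c37, Cyp2c50 and Cyp2c54, are therefore uncertain, and the gene length listed for Cyp2c40 (1801 bases) is that of the whole transcript (1800 in the annotation), windows that cannot be counted included. Cyp2c44 (2 transcripts in the tables) and Cyp2c50 (3 transcripts) may also be counted low, since reads that match several transcripts of a gene may not count as unique.

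The members were far higher in liver than in either other tissue. In order of median liver level the 10 members were Cyp2c29, Cyp2c70, Cyp2c54, Cyp2c39, Cyp2c44, Cyp2c37, Cyp2c50, Cyp2c38, Cyp2c55 and Cyp2c40. Cyp2c29 ranged over the 47 livers from 371 TPM in CC038 through a median of 1890 to 4880 in CC027. Cyp2c70 ranged from 335 TPM in CC033 through 1150 to 3030 in CC043. In TMM-scaled CPM its lowest liver was CC011 (591), and CC033 stood at 1092. Cyp2c54, an epoxygenase of arachidonic and linoleic acid, ranged from 61.5 TPM in CC038 through 263 to 760 in CC027. These 3 genes lie within a 13.1-fold range or less from the lowest to the highest liver, and no liver fell near 0.

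The middle of the order was crowded. Cyp2c39 had a median of 102 TPM (0.20 to 684), Cyp2c44 of 83.4 TPM (1.36 to 205), Cyp2c37 of 63.6 TPM (8.75 to 454) and Cyp2c50 of 43.1 TPM (15.9 to 97.2). Cyp2c38, an 11,12-EET synthase, had a median of 19.2 TPM (0.16 to 214). Cyp2c55 and Cyp2c40 were lowest, with medians of 1.13 TPM (0 to 17.6) and 0.97 TPM (0 to 188). Cyp2c70 exceeded Cyp2c54 in 47 of 47 livers, and Cyp2c29 exceeded Cyp2c70 in 41. Elsewhere neighbors in the order overlapped within livers: Cyp2c39 was above Cyp2c44 in 28 of 47, Cyp2c44 above Cyp2c37 in 17, and Cyp2c55 above Cyp2c40 in 24. By level the order of those pairs is not fixed from mouse to mouse.

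As shares of the members' summed TPM, Cyp2c29 made up a median of 51.0% in liver (28.6% to 72.1%) and Cyp2c70 a median of 33.3% (10.8% to 51.9%). Cyp2c29 was the leading member in 41 livers and Cyp2c70 in the other 6. Cyp2c54 contributed 6.62%, Cyp2c39 3.04% and the other 6 members under 2% each at the median. The sum of the 10 members ran from 1040 TPM in CC033 through 3900 to 7870 in CC027. CC033 was the liver least like the median profile (r = 0.944), and its place rests on TPM. In TMM-scaled CPM its Cyp2c29 stood at 1774, against 750 in CC038, and the sum was not computed in that unit. The members held a median of 87.0% of the TPM of all Cyp2c genes in the liver tables, the rest coming from the 6 further Cyp2c genes.

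**Figure D1:**
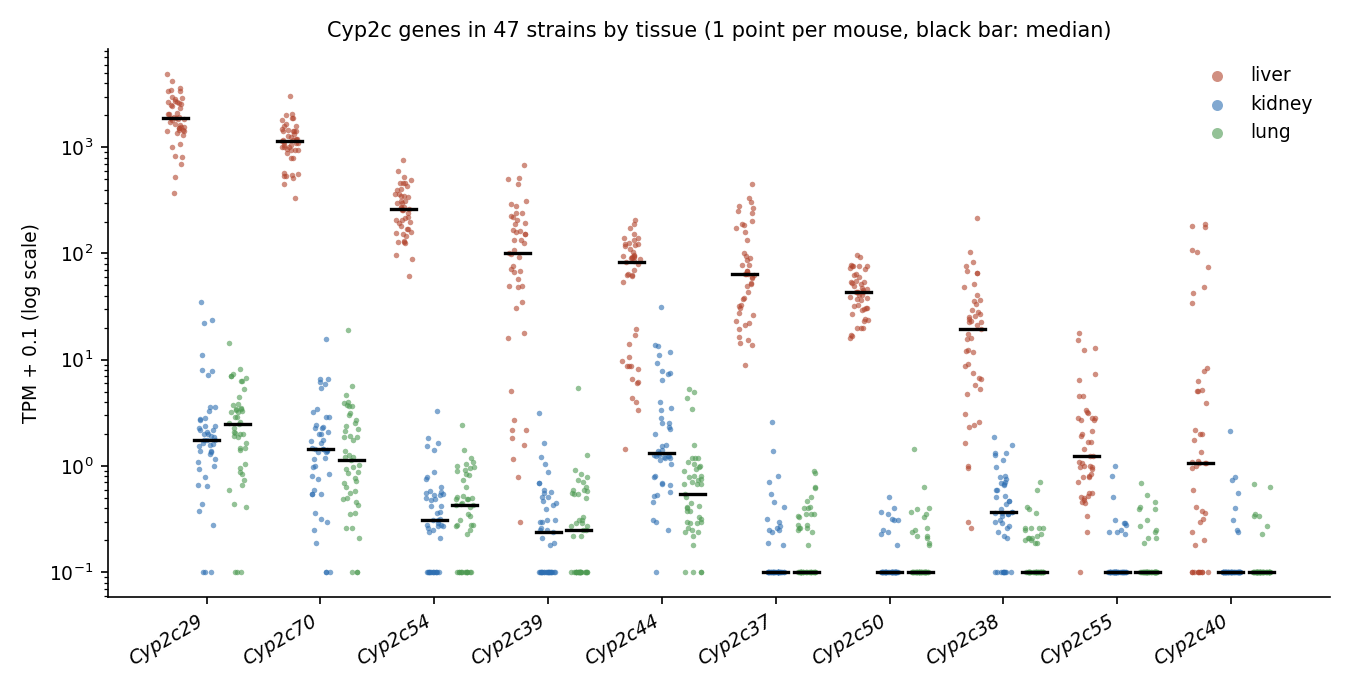
TPM plus 0.1 on a log axis for the 10 Cyp2c genes in liver, kidney and lung, with 1 point per mouse (47 per tissue) and a black bar at the median, genes ordered by median liver level. Liver points lie between 371 and 4880 TPM for Cyp2c29, while most kidney and lung points of every gene lie under 10 TPM.

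Kidney and lung held few reads of any member. In kidneys Cyp2c29 had a median of 1.67 TPM (0 to 35.0), Cyp2c70 of 1.33 (0 to 15.7) and Cyp2c44 of 1.23 (0 to 31.3). In lungs the medians of the same genes were 2.36 TPM (0 to 14.4), 1.05 (0 to 18.9) and 0.45 (0 to 5.15). Counts behind these medians were 9, 7 and 9 in kidney and 11, 4 and 3 in lung. Every other member had a median of at most 3 counts in both tissues, and Cyp2c50 had at most 3 counts in each of the 47 kidneys and 47 lungs. The leading member was Cyp2c29 in 21 kidneys, Cyp2c44 in 16, Cyp2c70 in 9 and Cyp2c38 in 1.

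Differences between tissues were fitted with limma-voom over 12127 genes with tissue and strain as terms, and called where the Benjamini-Hochberg q was at most 0.1 and the log2 fold change was 1 or more in either direction. Cyp2c40 and Cyp2c55 did not reach 1 CPM in 30% of the libraries, so 8 of 10 were tested. Taken alone, neither kidneys nor lungs reached that level for Cyp2c37, Cyp2c38, Cyp2c39, Cyp2c50 and Cyp2c54, nor did lungs for Cyp2c44. Those members entered the test through their liver libraries, so the direction of their calls against these tissues was largely set by the filter. Against lung all 8 were called higher in liver, beside 23.9% of all genes tested (31% were called higher in lung). With total counts in place of TMM all 8 were called, at 6.42 to 10.01, where 9.78% of all genes were higher in liver and 61.6% in lung. With TMM the log2 fold changes of the 8 had a median of 9.87, where that of all genes was -0.06. Cyp2c29 (11.23, SE 0.14, q = 3.5e-88) and Cyp2c70 (11.23, SE 0.15, q = 2.2e-85) differed most and Cyp2c44 least (7.96, SE 0.21, q = 4.8e-59). Each of the 8 was higher in liver in 47 of 47 mice. On the log2(TPM + 1) scale, which compresses low values, the differences ran from 3.87 for Cyp2c38 to 9.13 for Cyp2c29. The ranges of liver and lung overlapped for Cyp2c38 and Cyp2c39, which were near 0 in some livers. The share of all genes with separate ranges was not counted.

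Against kidney all 8 were again higher in liver, beside 15.6% of all genes (20.8% were higher in kidney, and with total counts 8.09% in liver and 47.8% in kidney), with a median log2 fold change of 9.48 against 0 for all genes. The comparisons share the liver libraries. Cyp2c29 (10.92, SE 0.15), Cyp2c70 (10.54, SE 0.15) and Cyp2c54 (10.48, SE 0.12) differed most, with limma q of 1.5e-85, 4.8e-84 and 6.8e-93. Cyp2c38 (6.48, SE 0.20, q = 1.9e-53) and Cyp2c44 (5.57, SE 0.19, q = 8.4e-49) differed least. In mean TMM-scaled CPM Cyp2c44 stood at 88.7 ± 66.9 in liver, 2.45 ± 4.21 in kidney and 0.356 ± 0.477 in lung (SD, n = 47 each). Where a member had only a few reads in kidney or lung, as Cyp2c50 did, the fitted size rests on the offset that voom adds to each count. With every gene of at least 1 count in the fit, Cyp2c40 and Cyp2c55 were also called higher in liver, with log2 fold changes of 5.72 and 4.96 against lung and 4.99 and 4.53 against kidney.

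Between lung and kidney 2 of the 8 members were called, both higher in kidney, as were 20.6% of all genes tested, while 25.5% were called in the direction of lung (15.1% and 33.4% with total counts). Cyp2c44 was lower in lung by a log2 fold change of -2.38 (SE 0.20, q = 7.4e-20) and was higher in kidney in 40 of 47 mice. Cyp2c38 differed by -2.10 (SE 0.20, q = 6e-17) and was higher in kidney in 36 of 47 mice. Cyp2c38 was counted at 0.365 ± 0.359 TMM-scaled CPM in kidney and 0.0513 ± 0.0850 in lung (SD, n = 47 each), so both levels are close to what single reads can show. The other 6 members differed by -0.70 to -0.32 and none was called, and for 5 of them the sign turned under another scaling or unit. On the log2(TPM + 1) scale neither call held, at -0.92 for Cyp2c44 (under the fold threshold, q = 0.00022) and -0.34 for Cyp2c38 (q = 0.11).

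Hepatocyte markers were lower in kidney and lung than in liver to a degree near that of Cyp2c29 and Cyp2c70, except Ttr in kidney. The log2 fold changes of Alb, Apoa1, Serpina3k and Fgb ran from 10.98 to 11.24 between liver and lung. They ran from 10.84 to 11.53 between liver and kidney, both near those of Cyp2c29 and Cyp2c70. Against lung Cyp2c54 stood at 10.96, and Cyp2c37, Cyp2c38, Cyp2c39, Cyp2c44 and Cyp2c50 at 7.96 to 10.05. Lung medians were 0 or 1 counts for Cyp2c37, Cyp2c38, Cyp2c39 and Cyp2c50, so their fold changes are limited by the offset that voom adds. Alb, the main plasma protein made by hepatocytes, was counted in every library, at 1.58 to 550 TPM in kidney (median 53.8) and 1.91 to 1170 TPM in lung (median 89.7). No defining hepatocyte marker was at 0 in more than 1 kidney or lung. Ttr, made in other tissues as well, stood at a median of 213 TPM in kidney, and its log2 fold change between liver and kidney was 6.72. Of these markers only Alb was correlated with the members within a tissue.

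Within kidneys Cyp2c29 rose with Alb over the 47 mice (Pearson r = 0.81, Spearman rho = 0.80, permutation p = 1e-05 for each, the smallest that 100000 permutations can give, q = 6e-05). Cyp2c70 did so too (r = 0.60, permutation p = 3e-05, q = 0.00013, rho = 0.61). Cyp2c44 did not pass the test (r = 0.18, permutation p = 0.23, q = 0.64, rho = 0.17). Within lungs the relation to Alb was r = 0.91 for Cyp2c29 (rho = 0.91) and 0.82 for Cyp2c70 (rho = 0.85), both with a permutation p of 1e-05 and q = 6e-05. Without the 2 mice farthest from the median of the member these 4 called relations kept r between 0.55 and 0.90. Across livers none of 13 tests of the members with Alb was called, with a lowest permutation p of 0.13 for r and 0.12 for rho. These tests were added after the data were seen, and 18 of them were adjusted together.

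**Figure D2:**
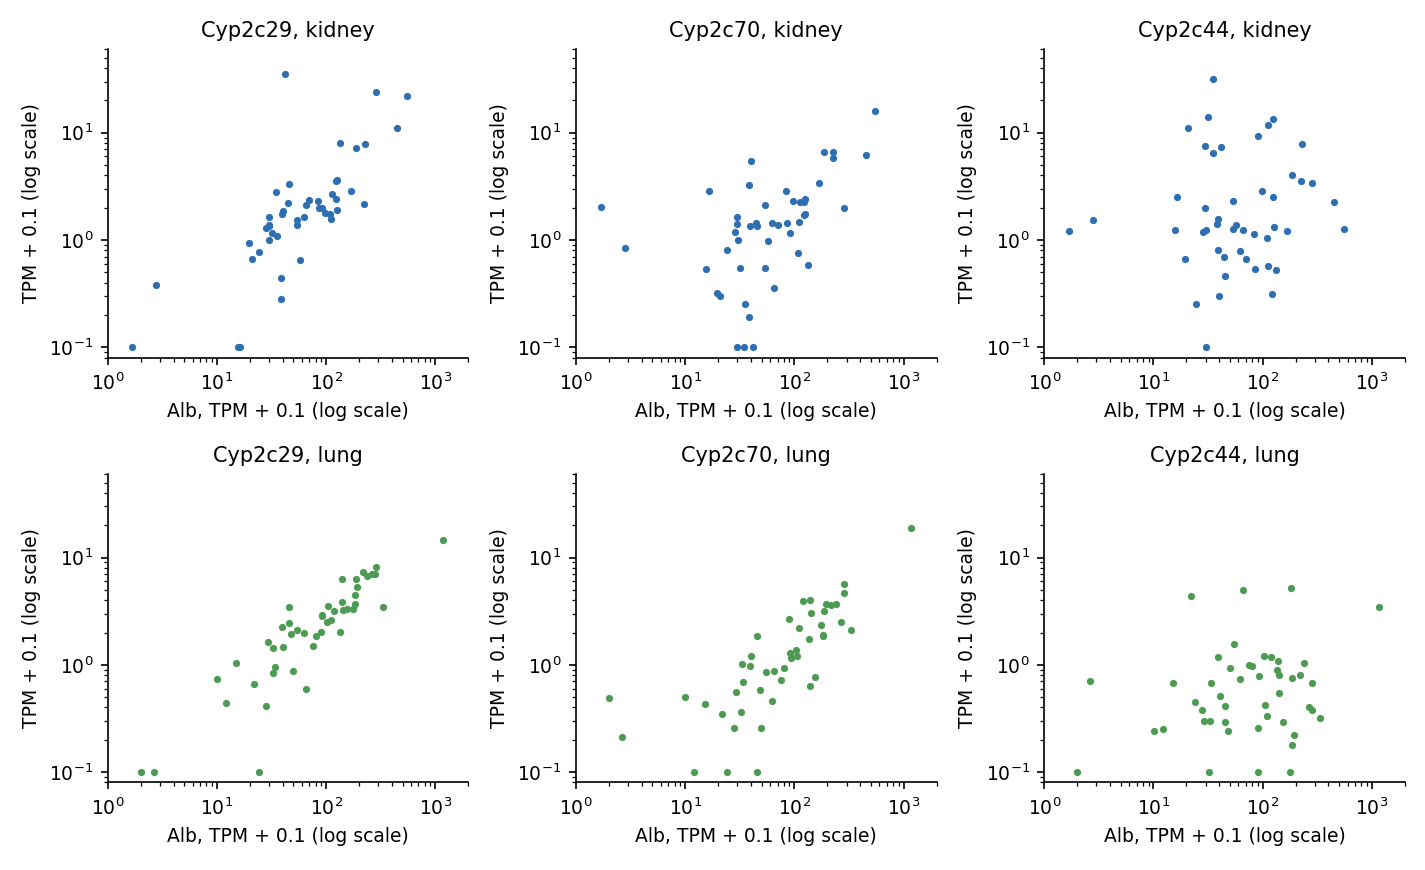
Each point is 1 of 47 kidneys (top) or lungs (bottom), with Alb TPM plus 0.1 on the horizontal log axis and TPM plus 0.1 of Cyp2c29, Cyp2c70 or Cyp2c44 on the vertical log axis. Cyp2c29 and Cyp2c70 climb with Alb (r of 0.81 and 0.60 in kidney, 0.91 and 0.82 in lung), and Cyp2c44 in kidney spreads over its range at any Alb level (r = 0.18).

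To set members beside Alb, each mouse's kidney or lung count of Alb was multiplied by the ratio of the member to Alb in its own liver, and the products were summed over mice. For Cyp2c29 the 47 kidneys held 712 counts where this product was 782, a ratio of 0.911, and for Cyp2c70 477 where it was 437, a ratio of 1.09. Cyp2c39 (1.05), Cyp2c54 (0.895), Cyp2c37 (0.843) and Cyp2c50 (0.735) were also near 1 in kidney, as were the hepatocyte markers Apoa1 (0.843) and Fgb (0.783), with Serpina3k at 0.65, while Ttr stood at 27.2. Cyp2c44, Cyp2c38 and Cyp2c55 exceeded it in kidney. Cyp2c44 had 1081 counts where the product was 35.9, a ratio of 30.1, and was above its own mouse's liver ratio in 45 of 47 kidneys. Cyp2c38 had 202 counts against 20.1 and was above it in 36 of 47. Cyp2c55 had only 15 counts, against 1.01. Cyp2c40, with 15 counts, had a ratio of 1.31, and Cyp2c69, the gene it shares most windows with, had 128 counts and a ratio of 5.33.

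In lung the ratio was 0.647 for Cyp2c29, 0.685 for Cyp2c70 and 0.603 for Cyp2c54, and 5.64 for Cyp2c44, which had 235 counts where the product was 41.7 and was above it in 38 of 47 lungs. Cyp2c38, with 31 counts and a ratio of 1.17, did not stand apart there. Nor did Cyp2c37 (0.544), Cyp2c39 (0.922) or Cyp2c50 (0.69), each on few counts. A fit of the lung and kidney libraries alone took the log2 CPM of Alb as a further term. In that fit Cyp2c44 (-2.62, limma q = 9.5e-10) and Cyp2c38 (-2.27, limma q = 3.6e-11) were called higher in kidney. Cyp2c38 did not reach the filter in kidneys or lungs alone, nor Cyp2c44 in lungs, so these sizes lean on the offset that voom adds. Without that term neither call held on the log2(TPM + 1) scale, as given above. In bulk tissue fewer cells of a type and less RNA per cell cannot be told apart. The part that hepatocyte RNA has in the kidney and lung counts was not tested beyond these values. Lung epithelium markers were also counted at low levels in livers and kidneys, and the source of low marker counts outside the defining tissue was not tested.

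**Figure D3:**
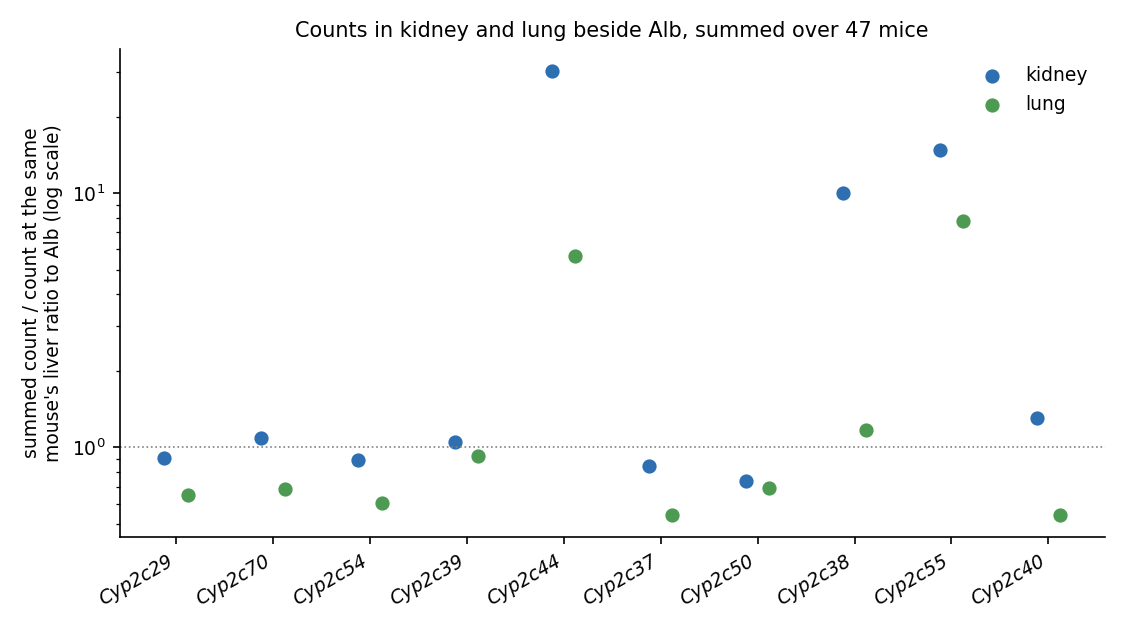
For each gene, the count summed over 47 kidneys (blue) or lungs (green) divided by the count it would have at its own mouse's liver ratio to Alb, on a log axis, with a dotted line at 1. Cyp2c44 stands at 30.1 in kidney and 5.64 in lung and Cyp2c38, with 202 counts against 20.1, well above the line in kidney, while Cyp2c29, Cyp2c70, Cyp2c54 and Cyp2c39 lie between 0.603 and 1.09; the high point of Cyp2c55 rests on 15 counts in kidney and 20 in lung.

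Levels differed over strains far more for some members than for others. As a description, the SD of log2 CPM over the 47 livers was 2.54 for Cyp2c39, 2.47 for Cyp2c40, 1.86 for Cyp2c38, 1.79 for Cyp2c44, 1.30 for Cyp2c37 and 1.09 for Cyp2c55, beside a median of 0.37 over 9499 genes expressed in liver. Cyp2c39 was above 99.8% of those genes, Cyp2c40 above 99.7%, Cyp2c38 above 99.3%, Cyp2c44 above 99.2% and Cyp2c37 above 97.8%. The most abundant members varied less. The SD was 0.47 for Cyp2c70, 0.53 for Cyp2c50, 0.55 for Cyp2c29 and 0.58 for Cyp2c54, above 69.0% to 83.1% of genes. From the 10th to the 90th percentile of livers TPM changed 3.38-fold for Cyp2c70 and 3.61-fold for Cyp2c29, but 14.2-fold for Cyp2c37, 34.4-fold for Cyp2c38 and 156-fold for Cyp2c39.

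For 3 members the livers fell into a low and a high set with a gap between them. The gap was taken as the largest step between neighboring livers on the log2(TPM + 1) scale that left at least 6 strains on each side, and a step of at least 1 was called a gap. How many of all liver genes show such a gap was not counted, so the count of 3 is not a result about the members. Cyp2c39 was at 0.20 to 4.93 TPM in 9 livers, those of CC003, CC006, CC007, CC011, CC020, CC023, CC036, CC038 and CC042, and at 15.8 to 684 TPM in the other 38, with medians of 1.73 and 144 TPM. Cyp2c44 was at 1.36 to 19.3 TPM in 16 livers and at 54.4 to 205 TPM in 31, with medians of 8.33 and 94.9 TPM. Cyp2c40, which makes a hydroxyeicosatetraenoic acid, showed the reverse proportion, at 0 to 8.25 TPM in 38 livers and at 34 to 188 TPM in 9, with medians of 0.68 and 104 TPM. The 9 livers high in Cyp2c40 were those of CC002, CC003, CC004, CC020, CC030, CC031, CC042, CC043 and CC049. Cyp2c40 had at most 3 counts in 20 livers, 10 of them at 0, so its low side lies near the count floor.

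The 3 sets of strains differ. Of the 9 livers low in Cyp2c39, 6 were on the low side of Cyp2c40 and 8 on the high side of Cyp2c44. Cyp2c38 and Cyp2c37 showed no such gap. Cyp2c38 was lowest in CC002 (0.16 TPM), CC004 (0.20), CC007 (0.86) and CC043 (0.90) and highest in CC024 (214 TPM). Cyp2c37 was highest in CC002 (454 TPM), CC011 (333) and CC043 (303) and lowest in CC038 (8.75). Thus by TPM CC002 had the highest Cyp2c37 and Cyp2c44 and the lowest Cyp2c38 of all 47 livers, and CC038 the lowest Cyp2c29, Cyp2c37, Cyp2c39 and Cyp2c54. In TMM-scaled CPM Cyp2c44 was instead highest in CC049 (257.9, against 201.2 in CC002). Cyp2c37 was lowest in CC068 (12.58, against 18.08 in CC038), and the other extremes of CC002 and CC038 were the same. Cyp2c40 shares most of its windows with Cyp2c67, Cyp2c68 and Cyp2c69, and whether its high side reflects reads of those genes in some strains was not tested. Sequence differences between strains, and the strains' genotypes, were not analysed here.

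**Figure D4:**
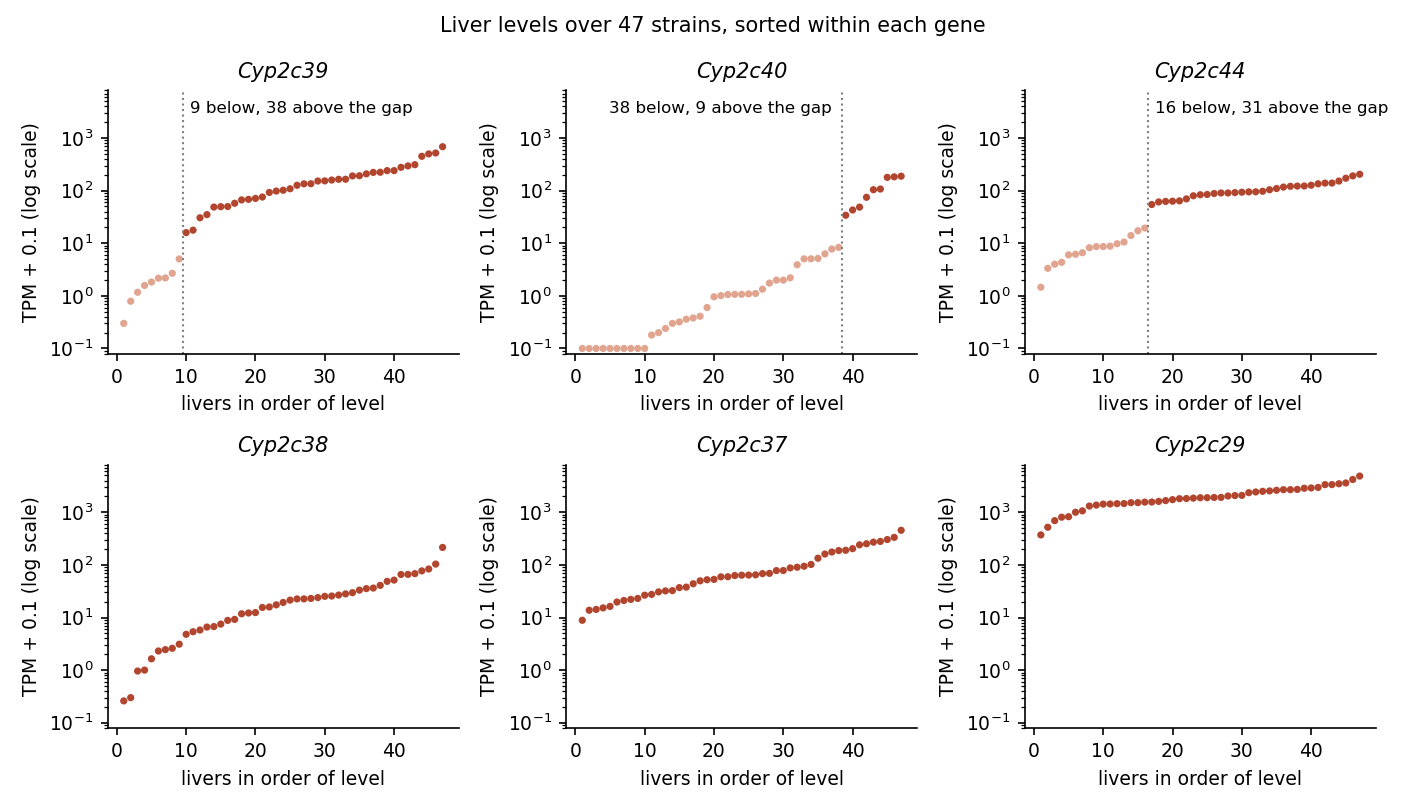
TPM plus 0.1 on a log axis for 6 Cyp2c genes over the 47 livers, sorted from low to high within each gene, with a dotted line and paler points marking a low side where a gap was found. Cyp2c39 splits into 9 and 38 livers, Cyp2c40 into 38 and 9 and Cyp2c44 into 16 and 31, while Cyp2c38, Cyp2c37 and Cyp2c29 rise without a gap.

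Which members vary together over strains was asked with correlations of rank inverse normal values of TMM-normalized TPM. Genes with a gap were tested only within each side. Of 63 tests across livers 11 were called at q of at most 0.05, and all 11 were positive. How often pairs of other liver genes would be called was not counted, so this number is not a result about the members. By Spearman rho 14 were called, and with TPM not scaled by TMM 19 were. Cyp2c37 and Cyp2c54, 25.7 kb apart, had the highest r over all strains (r = 0.73, rho = 0.71, permutation p = 1e-05, q = 0.00063, n = 47). Cyp2c38 and Cyp2c39, neighbors 47.8 kb apart on opposite strands, were related on both sides of the gap in Cyp2c39. On the high side r was 0.72 (rho = 0.75, permutation p = 2e-05, q = 0.00063, n = 38), and on the low side 0.86 (rho = 0.92, exact permutation p = 0.0035, q = 0.025, n = 9). On the low side the q was 0.069 without the 2 strains farthest from the median, with r again at 0.86.

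Cyp2c29 was related to Cyp2c54 (r = 0.57, q = 0.0011), Cyp2c37 (r = 0.49, q = 0.0059) and Cyp2c50 (r = 0.41, q = 0.025), each by permutation over 47 livers. Cyp2c50 was related to Cyp2c37 (r = 0.44, permutation q = 0.018) and to Cyp2c54 (r = 0.43, permutation q = 0.02), the latter with r = 0.32 and q = 0.15 once the 2 farthest strains were left out. Cyp2c55, an enzyme induced through CAR and PXR, was related to Cyp2c37 (r = 0.55, permutation q = 0.0011) and Cyp2c50 (r = 0.54, permutation q = 0.00084). Cyp2c37 and Cyp2c39 were related on the high side of Cyp2c39 (r = 0.45, permutation q = 0.029, n = 38). Pairs of 2 genes that each had a gap (Cyp2c39, Cyp2c40 and Cyp2c44) were not tested. Of the pairs tested none with Cyp2c70, Cyp2c44 or Cyp2c40 was called, with Cyp2c70 and Cyp2c38 the nearest (r = -0.37, permutation p = 0.012, q = 0.061, rho = -0.38 with q = 0.048, and r = -0.42 with q = 0.027 without the 2 farthest strains).

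Several of the pairs called are those whose reads are hardest to tell apart. Cyp2c37 shares 262 of its 1775 windows with Cyp2c54 and 374 with Cyp2c50, and Cyp2c38 shares 194 of 2820 with Cyp2c39. The relation of each such pair is uncertain to that degree, and the part of shared reads was not tested. Cyp2c55 shares no window with another gene's transcript, and its coding sequence is 75.6% identical to Cyp2c37 and 75.5% to Cyp2c50. Cyp2c29 shares no window with Cyp2c37, Cyp2c50 or Cyp2c54. Cyp2c29 and Cyp2c38, 89.1% identical and 58.9 kb apart, were not called.

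**Figure D5:**
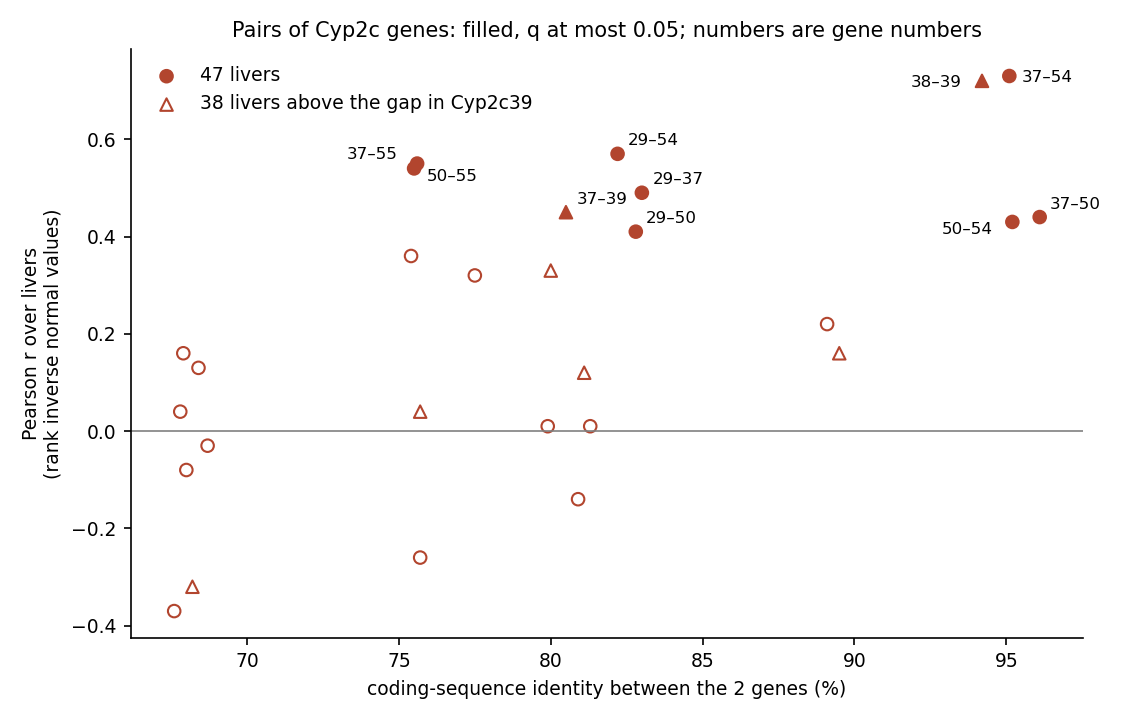
Coding-sequence identity (horizontal axis, percent) against Pearson r over livers (vertical axis) for pairs of Cyp2c genes without a gap over all 47 livers (circles) and for pairs with Cyp2c39 over the 38 livers above its gap (triangles), filled where q was at most 0.05. The pairs of over 94% identity are filled, with r from 0.43 to 0.73, and filled pairs also occur at 75.5% to 83.0%, such as Cyp2c37 with Cyp2c55 (r = 0.55).

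Promoters are shown for 2 of the pairs of close paralogs that varied together, Cyp2c37 with Cyp2c50 and Cyp2c38 with Cyp2c39. Those of the 2 most abundant members, Cyp2c29 and Cyp2c70, are added. The pairs of Cyp2c54 with Cyp2c37 and Cyp2c50 were called too but lack a Cyp2c54 window. Whether promoter likeness bears on varying together was not tested. The sequences are RefSeq windows of 300 bases (table build GRCm38.p6), 250 before to 50 after a gene's start, and each matched mm9 exactly at 1 place, within 40 bases of the annotated start of the transcript used: chr19:40066664-40066963 (plus strand) for Cyp2c37, chr19:40163919-40164218 (plus) for Cyp2c50, chr19:39537516-39537815 (minus) for Cyp2c38, chr19:39585062-39585361 (plus) for Cyp2c39, chr19:39361325-39361624 (plus) for Cyp2c29 and chr19:40261727-40262026 (minus) for Cyp2c70. They were found for 8 of the 10 members, and none was found for Cyp2c44 and Cyp2c54. Capitals mark CAAAGTC, the core of sites at which HNF4A is known to bind in CYP2C promoters, and TATAAA, each searched on both strands.
Cyp2c37: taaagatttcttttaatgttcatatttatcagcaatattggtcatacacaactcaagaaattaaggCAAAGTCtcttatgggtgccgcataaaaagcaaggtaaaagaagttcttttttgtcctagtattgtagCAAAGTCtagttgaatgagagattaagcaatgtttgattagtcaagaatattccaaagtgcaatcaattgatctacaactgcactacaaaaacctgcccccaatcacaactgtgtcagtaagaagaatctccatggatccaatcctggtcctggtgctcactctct
Cyp2c50: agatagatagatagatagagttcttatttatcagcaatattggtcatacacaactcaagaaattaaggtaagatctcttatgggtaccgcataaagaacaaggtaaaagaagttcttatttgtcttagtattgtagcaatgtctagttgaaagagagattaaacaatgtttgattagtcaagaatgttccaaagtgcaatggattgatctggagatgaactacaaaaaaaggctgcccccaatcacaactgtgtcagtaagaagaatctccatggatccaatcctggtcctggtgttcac
Cyp2c38: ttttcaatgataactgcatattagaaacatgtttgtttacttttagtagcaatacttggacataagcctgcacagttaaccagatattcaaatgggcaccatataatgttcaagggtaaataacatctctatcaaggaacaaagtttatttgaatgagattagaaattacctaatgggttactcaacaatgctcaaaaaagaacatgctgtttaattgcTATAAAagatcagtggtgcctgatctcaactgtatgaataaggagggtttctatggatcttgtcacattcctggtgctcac
Cyp2c39: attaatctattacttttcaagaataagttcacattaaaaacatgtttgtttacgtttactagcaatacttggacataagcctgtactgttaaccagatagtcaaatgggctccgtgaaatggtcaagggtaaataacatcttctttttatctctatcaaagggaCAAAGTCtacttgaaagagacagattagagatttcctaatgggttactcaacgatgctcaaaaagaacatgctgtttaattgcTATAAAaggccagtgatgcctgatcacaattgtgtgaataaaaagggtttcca
Cyp2c29: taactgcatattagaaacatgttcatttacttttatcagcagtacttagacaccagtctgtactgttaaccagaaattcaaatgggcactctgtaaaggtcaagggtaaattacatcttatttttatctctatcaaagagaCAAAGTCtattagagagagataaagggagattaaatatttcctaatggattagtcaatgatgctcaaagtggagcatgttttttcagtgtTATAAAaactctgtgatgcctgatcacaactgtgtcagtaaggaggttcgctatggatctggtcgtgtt
Cyp2c70: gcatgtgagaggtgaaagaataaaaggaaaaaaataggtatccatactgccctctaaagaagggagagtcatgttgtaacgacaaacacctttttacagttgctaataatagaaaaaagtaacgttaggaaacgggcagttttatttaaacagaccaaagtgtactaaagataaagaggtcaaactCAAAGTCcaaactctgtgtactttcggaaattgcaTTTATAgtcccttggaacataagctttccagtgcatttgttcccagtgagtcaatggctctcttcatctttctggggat
The windows of Cyp2c37 and Cyp2c50 were 88.5% identical over 295 aligned bases and those of Cyp2c38 and Cyp2c39 86.7% over 271, against 39.1% for Cyp2c37 and Cyp2c70. CAAAGTC was present in the windows of Cyp2c29, Cyp2c37 (at 2 places), Cyp2c39, Cyp2c40 and Cyp2c70, and was not in those of Cyp2c38, Cyp2c50 and Cyp2c55. It occurs in 4.44% of all 32851 promoter windows of this length, and TATAAA in 13.6%. A match is a description of these letters only.

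Among 10 marker genes tested against the members across livers, 1 of 130 tests was called (18 with TPM not scaled by TMM). Cyp2c29 rose with Cyp2b10, the standard target of CAR (r = 0.68, rho = 0.67, permutation p = 1e-05, q = 0.0013, n = 47), and r was 0.61 without the 2 farthest strains. Next was Cyp2c38 with Cyp7a1, the rate-limiting enzyme of bile acid synthesis (r = 0.46, permutation p = 0.0013, q = 0.085), which was not called. Cyp2c54 and Cyp2c37 had r of 0.37 (permutation q = 0.32) and 0.29 (permutation q = 0.57) with Cyp2b10. No member passed the test with Nr1i3, Nr1i2, Hnf4a, Por, Saa1, Glul, Cyp3a11 or Cyp2e1. Nr1i3 and Nr1i2 were counted low, at 0 to 4.42 and 0 to 8.09 TPM over the livers. Both have several annotated transcripts, so they may be undercounted as Cyp2c50 may be, which was not tested. Tests on such values cannot decide how these receptors relate to the members.

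Outside the Cyp2c genes, the gene whose liver pattern was most like each member was found by Spearman rho over 47 livers among 9485 genes, as a description. It was Cyp2b10 for Cyp2c29 (rho = 0.670), Sult1a1, a phenol sulfotransferase, for Cyp2c38 (0.620), Hao1, a peroxisomal hydroxyacid oxidase, for Cyp2c70 (0.613), Enpep, glutamyl aminopeptidase, for Cyp2c39 (0.603) and Cwf19l1 for Cyp2c44 (0.6). For Cyp2c40, Cyp2c37, Cyp2c50, Cyp2c54 and Cyp2c55 it was Rnf144b (0.577), Ubr1 (0.561), Vps35 (0.523), Dnah11 (0.522) and Osbp (0.509). The second in line were Pdk1 for Cyp2c29 (0.552), Cyp3a44 for Cyp2c38 (0.586), Ugt2b1, a glucuronosyltransferase, for Cyp2c70 (0.604), Abcd2 for Cyp2c39 (0.579) and Cks1b for Cyp2c44 (0.559). With this many genes searched, high values are to be found for any pattern.

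Between tissues of the same mouse no member was called in 8 tests over strains, by r or by rho, and none had an unadjusted permutation p under 0.05. Cyp2c29 gave r = 0.03 between liver and kidney, 0.18 between liver and lung and 0.05 between lung and kidney (permutation q = 0.83 for each). Cyp2c70 gave -0.06, -0.04 and 0.11. Cyp2c44 between liver and kidney gave -0.27 over the 16 mice with low and 0.08 over the 31 with high liver levels. Across kidneys Cyp2c29 and Cyp2c70 were related (r = 0.37, rho = 0.41, permutation p = 0.0094, q = 0.028, but r = 0.28 and q = 0.16 with TPM not scaled by TMM), and across lungs more closely (r = 0.80, rho = 0.83, permutation p = 1e-05). Both genes rose with Alb in the same libraries, as given above. Cyp2c44 was related to neither in kidney (r = 0.15 with Cyp2c29 and 0.03 with Cyp2c70, permutation q = 0.48 and 0.84).

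Genes that work with CYP2C enzymes differed between tissues in their own ways. Of the 6 further Cyp2c genes, Cyp2c67, Cyp2c68 and Cyp2c69 were tested and were called higher in liver against both tissues (log2 fold changes of 7.53 to 11.09), and Cyp2c69 was also called higher in kidney than in lung (-2.05). Of 5 electron transfer genes 4 were called higher in liver than in lung, led by Pgrmc1 (3.64) and Cyb5a (3.33), and 2 higher than in kidney, but Por itself was not called in any comparison (0.50, 0.12 and -0.38). Of the 3 epoxide hydrolases tested, 2 were called higher in liver than in lung and 1 higher in lung, Ephx3 (-2.44), and 2 were called higher in liver than in kidney. Ephx2 was higher in liver than in lung by 6.32 and than in kidney by 1.24, and Ephx1, the microsomal form, by 2.08 and 3.46. Of the 4 bile acid synthesis genes all were called higher in liver in both comparisons, Cyp7a1 by 10.16 and 10.26.

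Of 14 regulators 8 were tested. Foxa3, Onecut1 and Hnf4a were called higher in liver than in lung (7.61, 8.80 and 7.97), as was Stat5b (1.01). Hnf4a (0.08) was not called between liver and kidney, where Foxa3 (8.91), Onecut1 (8.37), Foxa1 (5.64) and Stat5b (1.90) were higher in liver. Of the 5 heme synthesis genes tested 4 were called higher in liver than in lung and 2 than in kidney, with Cpox at 3.71 and 1.04 and Alas1, the first enzyme of the pathway, at 2.23 and 2.95. Of 5 other arachidonate oxygenases tested, 4 were called higher in lung than in liver, with log2 fold changes of liver against lung of -6.64 for Ptgs2, -4.56 for Alox15, -3.80 for Alox5 and -1.54 for Ptgs1. Lta4h (0.38) was not called. Against kidney 2 of the 5 were called, Ptgs2 (-2.71) and Alox5 (-1.40), both higher in kidney than in liver, and Ptgs1 (0.05), Alox15 (-0.40) and Lta4h (0.47) were not.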

How the data were processed

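RNA-seq was performed on liver, kidney and lung of 1 male mouse from each of 47 Collaborative Cross strains, and groups were taken from the tissue named in the labels. Per the authors' methods, total RNA was depleted of ribosomal RNA, sequenced as 50-base single-end reads, and aligned with RSEM and STAR 2.5.3a (named in the submitters' processing notes) to strain pseudo-genomes of mm9 with C57BL/6J RefSeq transcripts, with only uniquely aligned reads counted. For each gene and library the deposited values were RSEM's expected count, TPM and FPKM. Expected counts (25 not whole) were rounded, and TPM was used as deposited to describe levels. The FPKM column was not used.

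Tissues were compared with limma 3.58.1 (voom with a prior count of 0.5, TMM factors from edgeR 4.0.16, R 4.3.3) on 12127 genes above 1 CPM in at least 30% of libraries, with tissue and strain as terms. Genes were called where the Benjamini-Hochberg q was at most 0.1 and the log2 fold change was 1 or more in either direction. The strain term pairs libraries of the same mouse: deviations from the tissue mean correlated at a median r of 0.166 to 0.211 within a mouse and of about 0 between mice (from -0.00604 to -0.00482). With that term in the fit, p-values measure how tissue differences vary between mice, with the spread of each gene shared by all tissues. On simulated counts for liver against lung 200 of 200 changed genes among 12127 were recovered, with 0 false calls. All other genes were drawn at the same mean in every tissue, with a fixed spread and no strain effect. The simulation checks the code and cannot give the error rate in these data, where far more genes differ.

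Correlations over strains used rank inverse normal values of TMM-normalized TPM for members with a median of more than 3 counts, 100000 permutations (all orders where n was under 10), Benjamini-Hochberg adjustment within each family (pairs across livers, kidneys and lungs, pairs between tissues, marker genes, Alb) and a q of at most 0.05 (scipy 1.17.1, numpy 2.4.6, pandas 2.3.3). They were repeated without the 2 strains farthest from the median. Coding sequences and positions came from an mm9 genome and annotation, and were aligned with mafft 7.526. Windows of 50 bases were counted by exact match. Figures were drawn with matplotlib 3.10.9.

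All 10 members were named in every comparison, with up to 4 genes for each list of related genes, those past the threshold with the largest fold change, and the 2 genes most like each member in liver. Por, Hnf4a between liver and kidney, Ephx1 and Stat5b were named after their values were seen. The members and lists were chosen with earlier results of these data known. The values of 1 listed gene are not reported here. The correlations with Alb, Alb as a covariate, scaling by total counts and the removal of single strains were added after the data were seen. Alternatives were the edgeR quasi-likelihood test, DESeq2 1.42.0, other filters, scalings, units and thresholds. Sequencing batches are not in the labels, so no within-batch values could be given.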

Additional observations from a re-analysis of the deposited data

How the results depend on the processing

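Over the comparisons, 64 counts of calls under an alternative stayed within 1.5 times the reported count and 5 did not. All 8 members tested were called higher in liver under each of the 12 alternatives against lung and against kidney, with log2 fold changes of Cyp2c29 from 9.13 to 11.43 against lung. For Cyp2c37, Cyp2c38, Cyp2c39, Cyp2c50 and Cyp2c54, and for Cyp2c44 against lung, the direction was largely set by the filter, as given above. Between lung and kidney, where 2 members were called, 8 were called with no fold-change threshold. On the log2(TPM + 1) scale 0 were called, with Cyp2c44 at -0.92 and Cyp2c38 at -0.34. The share of all genes called under these settings was not counted, so the counts are not a result about the members. Pairs across livers went from 11 to 19, pairs across kidneys from 1 to 0 and marker relations from 1 to 18 with TPM not scaled by TMM, and the cause was not tested. Counts were 8, 8 and 2 with no replicate block, the strain term left out, and the same without strains CC015, CC020, CC033 and CC037; the block changed no call.

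For single genes and pairs, 348 values kept direction and call, 6 gained the call, 6 lost it and 13 changed sign, all 13 between lung and kidney and for members not called there. With total counts in place of TMM these were Cyp2c29 (0.09), Cyp2c37 (0.11) and Cyp2c50 (0.08). On log2(TPM + 1) they were Cyp2c29 (0.08), Cyp2c37 (0.01), Cyp2c39 (0.01), Cyp2c50 (0.04) and Cyp2c54 (0.03). On log2(TPM + 0.1) they were Cyp2c29 (0.16), Cyp2c37 (0.19), Cyp2c39 (0.01), Cyp2c50 (0.16) and Cyp2c54 (0.11). Cyp2c37 and Cyp2c39 above the gap gave r = 0.40 (permutation q = 0.063) on log2 CPM. Total counts moved the median log2 fold change of all genes from -0.06 to -1.44 for liver against lung, from 0 to -0.95 for liver against kidney and from 0.04 to 0.46 for lung against kidney, and the share of called genes that were higher in the first tissue from 43.5% to 13.7%, from 42.9% to 14.5% and from 55.2% to 68.8%. DESeq2 size factors moved the medians to -0.30, -0.11 and 0.18.

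Depth limits the kidney and lung values: a count of 0 in a median library allows 0.364 and 0.321 CPM, and Cyp2c40 and Cyp2c55 were tested only without the low-count filter. Windows shared with paralogs limit Cyp2c40, Cyp2c37, Cyp2c50 and Cyp2c54. With a floor of more than 10 counts no pair within kidneys or lungs, or between kidney and another tissue, was left to test.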
